A study of Mus musculus with 15 samples.

Results

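The genes described here are the semaphorins, their plexin receptors, the neuropilins and the plexin domain containing genes. They were taken by symbol, as all semaphorins of classes 3 to 7, all plexins, Nrp1, Nrp2, Plxdc1 and Plxdc2, which gave 33 of the 55335 genes listed. Earlier results of these data were known when this choice was made. RNA-seq was performed on tumor-associated macrophages (TAMs) that were sorted by FACS from hepatocellular carcinoma (HCC) grown in the liver of C57BL/6 mice after injection of the mouse hepatoma line Hepa1-6. The 15 samples fell into 3 groups of 5, TAMs from tumors of control cells and from tumors with miR-144 overexpression or miR-451a overexpression in the HCC cells. In all 3 groups the tumor cells also carried lentiviral firefly luciferase. The labels call the first group control HCC, and for this tumor model the study describes cells given a control lentivirus in place of one with a miRNA. The miRNAs were overexpressed in the tumor cells, not in the macrophages, and the host mice had an intact immune system. The labels give neither the age nor the sex of the mice, nor which mouse a sample came from, so p-values measure the spread between these samples, which may be technical. The study's own account of its TAM RNA-seq names fewer replicates in a group than the samples deposited, so samples of a group may share animals, and the sources used here do not settle this.

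Semaphorins are secreted, transmembrane or membrane-anchored ligands first known from axon guidance, and plexins are their transmembrane receptors, whose cytoplasmic part acts on the cytoskeleton and on integrins. Class 3 semaphorins are secreted and mostly bind neuropilins, coreceptors that hold plexins in the receptor complex and that also bind VEGF, whereas class 4, 6 and 7 members bind plexins directly. In macrophages and other immune cells these pairs are known for cell migration, contact with T cells and the entry of macrophages into hypoxic tumor areas.

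The miRNAs that set the groups apart are shown first, because the TAMs of both miRNA groups are compared below. The mature sequences from RefSeq (GRCm38.p6) are given 5′ to 3′ with the seed, bases 2 to 8, in capitals. They lie on the plus strand at chr11:78073010-78073032, chr11:78073047-78073066 and chr11:78073186-78073207, in this order.
mmu-miR-144-5p: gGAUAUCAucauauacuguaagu
mmu-miR-144-3p: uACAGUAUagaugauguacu
mmu-miR-451a: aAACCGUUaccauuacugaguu
No seed is shared between them. The genes Mir144 and Mir451a were listed at 0 FPKM in all 15 TAM samples, which does not check the labels, since the overexpression was made in the tumor cells.

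FPKM is a fragment count scaled to transcript length and library size, so levels can be compared between genes. Steps between low values imply a depth of 15.5 to 30.3 M fragments per sample, with medians of 23.9, 22.4 and 21.4 in the control, miR-144 and miR-451a groups. The macrophage label was checked against 6 defining genes (Adgre1, Itgam, Csf1r, Cd68, Fcgr1 and Mertk), and all 6 were expressed in every sample. Their levels differed between the groups too: in the fit with no filter on low values Fcgr1 was higher by 2.69 and 2.64 on the log2 scale in the miR-144 and miR-451a groups, Adgre1, which encodes the sort marker F4/80, by 1.39 and 1.36, and Csf1r by 0.78 and 0.79 and Mertk by 0.57 and 0.61, while Cd68 fell by 0.65 and 0.67. Itgam, which encodes the other sort marker CD11b, is listed under 2 identifiers whose values vary against each other between samples, so its reads may be split between them. Their sum was 75.4 ± 2.14 FPKM in control TAMs, 110.3 ± 7.29 with miR-144 and 116 ± 4.48 in the miR-451a group (SD, n = 5). Of 6 hepatocyte genes 5, albumin among them, were listed at 0 in all samples, as was the Kupffer cell gene Clec4f. Summed T cell, NK cell, neutrophil and dendritic cell lists each stayed at or under 1.15 FPKM in all samples, of which the NK cell list was lower and the dendritic cell list higher in all miRNA samples than in all control samples. The fibroblast list summed to 106 to 131 FPKM in control TAMs, 141 to 209 with miR-144 and 180 to 231 with miR-451a, the Kupffer cell list to 3.30 to 3.77, 17.1 to 50.1 and 16.0 to 47.3, nearly all of it Cd5l, and the endothelial list to 45.7 to 50.4, 10.7 to 12.8 and 10.8 to 13.5, mostly Vwf, while Kdr of the same list rose. The monocyte list summed to 3.64 to 5.32, 9.63 to 14.8 and 9.64 to 13.5 FPKM, and the B cell list to 0.138 to 0.375, 1.11 to 1.45 and 1.17 to 1.73. The part of these cell types in the results below was not tested. The endothelial genes Pecam1 and Cdh5 stayed at or under 0.232 and 0.182 FPKM in all samples. Differences below are on the log2(FPKM + 1) scale from limma, with the 3 groups in 1 fit and Benjamini-Hochberg adjustment over 11419 genes, and a gene is called at an adjusted p under 0.05. On this scale the median of all tested genes lay 0.13 above control with miR-144 and 0.14 above it with miR-451a.

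Of the 33 genes, 17 reached a mean of 1 FPKM over the 15 samples. These were 7 of the 20 semaphorins, 6 of the 9 plexins, both neuropilins and both plexin domain containing genes. All 7 class 3 semaphorins, the secreted ligands of neuropilins, stayed below that mean, and together they summed to 0.676 to 1.31 FPKM in a sample. In control TAMs Plxna1, a receptor partner of neuropilins, had the highest level of the family with 133 ± 6.70 FPKM (SD, n = 5), followed by Plxnd1, Plxnb2 and Nrp2. Plxnc1 and Sema4d came next and overlapped each other. Plxdc2, Nrp1, Plxdc1, Sema4a and Sema6b followed in this order with no overlap between neighbours, and Plxna2 and Sema4b overlapped each other. Sema4c and Sema6d were lower, and Sema7a and Plxnb3 were lowest and overlapped. In TAMs from both miRNA groups Plxnb2, the receptor of several class 4 semaphorins, was highest with 141 ± 4.11 FPKM and 143 ± 4.99 FPKM (SD, n = 5). Sema4d was next and overlapped Plxnd1, and Plxna1 stood in the fourth place.

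**Figure D1:**
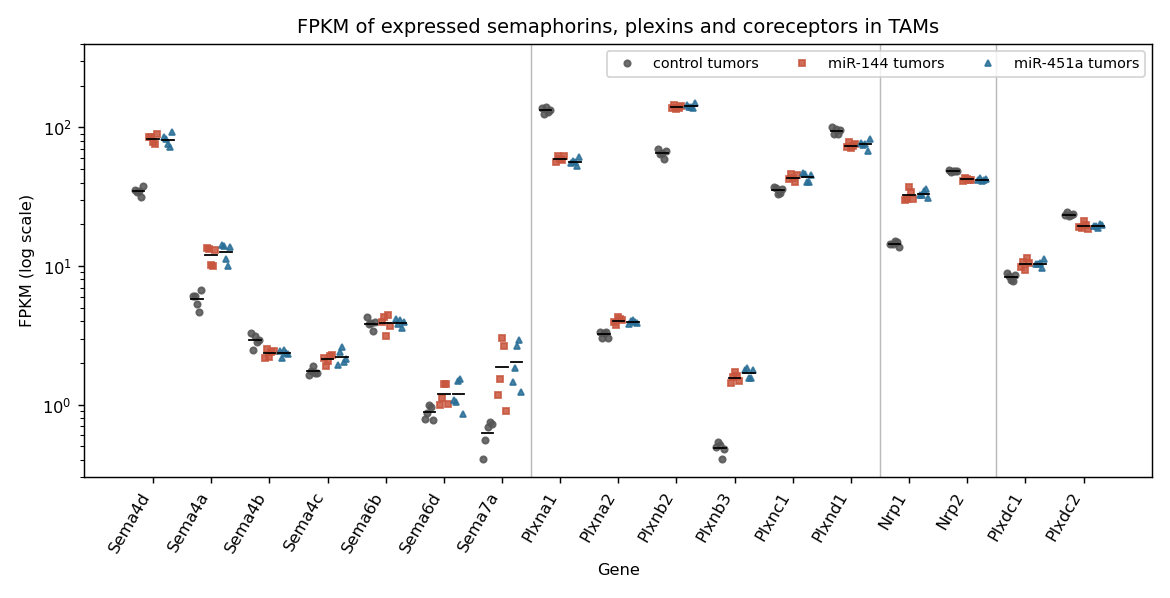
FPKM (log scale) of the 17 expressed genes by gene, with 1 point per sample, 5 samples in each of the 3 groups, and a black line at each group mean; grey lines separate semaphorins, plexins, neuropilins and plexin domain containing genes. Plxna1 lay lower and Plxnb2, Sema4d and Nrp1 lay higher in all samples of both miRNA groups than in any control sample.

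The first comparisons ask how TAMs differ when the tumor cells around them overexpress either miRNA. Of the 17 expressed genes, 11 rose and 5 fell in TAMs from miR-144 tumors against control, and Sema6b was not called. That is 64.7% higher and 29.4% lower, beside 47.1% and 20.1% of all tested genes. With miR-451a, 11 rose and 5 fell as well, beside 48.1% and 20.3% of all genes. At a difference of at least 1 on the log2 scale, 4 of the 17 were called with miR-144 (Sema4d, Nrp1, Plxnb2 and Plxna1; 23.5%, beside 7.78% of all genes) and 5 with miR-451a (the same and Sema4a; 29.4%, beside 8.27%). All 5 miR-144 samples lay on one side of all 5 control samples for 15 genes (beside 53.9% of all genes), and all 5 miR-451a samples did for 14 (beside 55.2%). The median difference of the 17 genes from control was 0.26 in the miR-144 group and 0.24 in the miR-451a group. Both comparisons use the same 5 control samples. Plxnb3, Sema7a and Sema6d had control means under 1 FPKM and passed the filter through the groups where they were higher, so these counts are a description and no evidence about the family. In bulk RNA, fewer cells of a type and less RNA per cell cannot be told apart.

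Among the class 4 semaphorins, membrane-bound ligands of B and D plexins, Sema4d and Sema4a rose in TAMs from both miRNA groups. Sema4d, which is shed from the cell surface and binds Plxnb1, Plxnb2 and Cd72, was the most abundant semaphorin in every sample. The gene, ENSMUSG00000021451, lies at chr13:51685529-51793747 on the minus strand (GRCm38). Its FPKM was 35.5, 34.3, 34.7, 31.3 and 37.5 in control samples 1 to 5, 85.6, 85.1, 78.9, 75.7 and 90.1 with miR-144, and 85.4, 82.9, 75.9, 72.4 and 92.4 with miR-451a. Every miRNA sample lay at more than 70 FPKM and no control sample reached 40. The means rose 2.40-fold and 2.36-fold, with log2 differences of 1.24 and 1.21 (SE 0.07, adjusted p = 3.04e-10 and 3.64e-10). Sema4a, a ligand that acts on T cells and on plexins B and D, lies at chr3:88435959-88461182 on the minus strand. It was at 6.09, 6.10, 5.29, 4.65 and 6.74 FPKM in control TAMs, at 13.4, 13.2, 10.3, 9.93 and 13.02 in miR-144 samples, and at 14.2, 13.97, 11.3, 10.02 and 13.8 in miR-451a samples. The lowest miRNA sample stood above the highest control sample. The means rose 2.07-fold and 2.19-fold, with log2 differences of 0.93 and 1.01 (SE 0.11, adjusted p = 3.45e-06 and 1.44e-06).

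The other class 4 genes moved less. Sema4c, a ligand of Plxnb2, had means of 1.74 ± 0.0937, 2.13 ± 0.153 and 2.22 ± 0.270 FPKM (SD, n = 5) in the control, miR-144 and miR-451a groups, with log2 differences of 0.19 and 0.23 (adjusted p = 0.00659 and 0.00190). These calls were lost after median centring (adjusted p = 0.401 and 0.216) and after quantile normalization (0.702 and 0.432). Rescaled to TPM the differences were larger, at 0.32 and 0.37, and both calls held. A transcript on the other strand, D430040D24Rik, covers 7.27% of the exon bases of Sema4c and was at 0.0174 to 0.146 FPKM. Sema4b went the other way, from 2.93 ± 0.307 FPKM to 2.34 ± 0.145 and 2.36 ± 0.120, which fell by 0.23 and 0.22 on the log2 scale (adjusted p = 0.00133 and 0.00168) and was at -0.37 in both after median centring. Its lowest control sample, at 2.47 FPKM, was under the highest sample of each miRNA group, and without samples 3 and 4 of all groups the difference with miR-144 was -0.21 and no longer passed (adjusted p = 0.0606). Sema4f and Sema4g stayed at or under 0.121 FPKM in all samples.

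Class 6 and class 7 semaphorins were expressed at a few FPKM or less. Sema6b, a transmembrane ligand of A plexins, was at 3.85 ± 0.316, 3.89 ± 0.517 and 3.91 ± 0.232 FPKM (SD, n = 5), with differences of 0.01 (95% interval -0.14 to 0.16) and 0.02 (-0.13 to 0.17). Sema6d, the ligand that acts through Plxna1 together with Trem2 and Tyrobp in myeloid cells, was at 0.794, 0.870, 0.988, 0.966 and 0.781 FPKM in control TAMs, 0.993, 1.12, 1.41, 1.41 and 1.01 with miR-144, and 1.08, 1.05, 1.47, 1.52 and 0.861 with miR-451a. Control and miR-144 samples were just apart, and 1 miR-451a sample lay among the control samples. The differences of 0.22 in both comparisons passed (adjusted p = 0.0379 and 0.0359). In the fit without a filter on low values the differences were as large and did not pass (adjusted p = 0.0822 and 0.0769). The calls were also lost, with differences of 0.20 to 0.22, without control sample 1 (0.0770 and 0.0735), control sample 2 (0.0612 and 0.0588) or control sample 5 (0.0790 and 0.0755), and with differences of 0.17 to 0.18 without sample 3 or 4 of the miRNA group compared (0.0946 to 0.0988). After median centring the differences themselves were smaller, at 0.08 and 0.07 (adjusted p = 0.440 and 0.486), as they were after quantile normalization, at 0.015 and 0.0088 (0.897 and 0.938). The calls held with a pseudocount of 0.1 and rescaled to TPM, where the differences were larger, at up to 0.39 in each comparison.

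Sema7a, the membrane-anchored ligand of Plxnc1 and of integrins, had the largest coefficient of variation of the 17 expressed genes in each group (23.1%, 50.1% and 36.6%). Its FPKM was 0.406, 0.551, 0.685, 0.755 and 0.722 in control TAMs, 1.17, 1.53, 3.02, 2.65 and 0.907 with miR-144, and 1.46, 1.85, 2.66, 2.92 and 1.23 with miR-451a. All miRNA samples were above all control samples, and samples 3 and 4 of both miRNA groups were the highest. The mean FPKM rose 2.98-fold and 3.24-fold, with log2 differences of 0.76 and 0.87 (SE 0.20, adjusted p = 0.00388 and 0.00142). Without samples 3 and 4 of the miRNA groups, an alternative chosen after seeing the data, they were 0.44 and 0.63 (adjusted p = 0.00605 and 0.000555), and without samples 3 and 4 of all groups, likewise chosen after seeing the data, 0.49 and 0.69 (adjusted p = 0.0116 and 0.00200). With a pseudocount of 0.1 in place of 1, the differences were 1.33 and 1.51.

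The plexins changed in opposite ways. Plxna1 (chr6:89316314-89362620, minus strand) was the gene of the family that fell most, with FPKM of 139, 125, 141, 129 and 133 in control TAMs, 56.7, 61.9, 59.5, 58.2 and 62.0 with miR-144, and 55.2, 57.1, 56.2, 52.5 and 61.7 with miR-451a. No control sample was under 120 and no miRNA sample was above 65 FPKM. Its control mean was 2.24-fold and 2.36-fold that of the miRNA groups, and it fell by 1.15 and 1.22 on the log2 scale (SE 0.04, adjusted p = 7.09e-12 and 3.06e-12). An antisense gene, Gm26811, covers 10.7% of the exon bases of Plxna1. It was at 0.599 to 1.77 FPKM, and without knowing the strand of the libraries its reads cannot be told apart from those of Plxna1.

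Plxnb2 (chr15:89155549-89180788, minus strand) rose by about as much as Plxna1 fell. It was at 69.5, 64.1, 65.2, 59.2 and 67.0 FPKM in control TAMs, 139, 146, 136, 138 and 143 with miR-144, and 144, 141, 140.1, 138 and 151 with miR-451a. The lowest miRNA sample was far above the highest control sample. The means rose 2.16-fold and 2.20-fold, with log2 differences of 1.10 and 1.13 (SE 0.04, adjusted p = 2.85e-12 and 2.08e-12). Plxnb3, a receptor of class 5 semaphorins, was far lower, at 0.409 to 0.538 FPKM in control samples, 1.44 to 1.72 with miR-144 and 1.55 to 1.83 with miR-451a. Its means rose 3.23-fold and 3.51-fold, with log2 differences of 0.79 and 0.86 (adjusted p = 8.65e-10 and 2.85e-10), and 1.51 and 1.62 with a pseudocount of 0.1.

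The remaining expressed plexins moved by less than 0.4 on the log2 scale. Plxnc1, the receptor of Sema7a, rose from 35.4 ± 1.89 FPKM to 43.5 ± 2.21 and 43.8 ± 3.18 (SD, n = 5), with differences of 0.29 and 0.30 (adjusted p = 0.000171 and 0.000117), and 0.16 in both after median centring, where both calls held. Plxna2, a receptor of class 3 and class 6 semaphorins, rose from 3.21 ± 0.165 FPKM to 4.03 ± 0.196 and 3.96 ± 0.111, with differences of 0.26 and 0.24 (adjusted p = 1.91e-05 and 4.07e-05), and 0.12 and 0.09 after median centring. The call of Plxna2 with miR-451a was lost after median centring (adjusted p = 0.0560) and after quantile normalization (0.0873). Plxnd1, which can bind Sema3e without a neuropilin, was at 100.3, 89.5, 98.2, 89.0 and 95.7 FPKM in control TAMs, 71.9, 77.9, 70.8, 73.4 and 76.3 with miR-144, and 76.8, 75.2, 76.0, 68.0 and 82.4 with miR-451a. All 10 miRNA samples lay below all control samples. It fell by 0.35 and 0.32 (adjusted p = 1.64e-05 and 3.66e-05).

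The neuropilins also went in opposite directions. Nrp1 (chr8:128358604-128503363, plus strand), the coreceptor of class 3 semaphorins and VEGF-A, was at 14.4, 14.3, 15.1, 14.9 and 13.7 FPKM in control TAMs, 30.1, 30.6, 37.1, 34.4 and 30.3 with miR-144, and 32.3, 32.3, 34.9, 35.8 and 31.0 with miR-451a. Each miRNA sample was well above the highest control sample. The means rose 2.24-fold and 2.30-fold, with log2 differences of 1.11 and 1.15 (SE 0.06, adjusted p = 1.91e-10 and 1.21e-10). Nrp2, which binds class 3 semaphorins and VEGF-C, was at 49.4, 47.6, 48.4, 48.3 and 48.8 FPKM in control TAMs, 41.3, 43.4, 42.6, 41.6 and 42.0 with miR-144, and 41.6, 43.4, 41.2, 41.5 and 42.2 with miR-451a. It fell by 0.20 in both comparisons (SE 0.02, adjusted p = 2.54e-06 and 1.72e-06; -0.33 and -0.35 after median centring, -0.13 and -0.12 rescaled to TPM), and its miRNA samples, at 43.4 FPKM or less, did not overlap control. Fibroblasts and endothelial cells also express neuropilins, and the summed fibroblast list was higher in the miRNA groups. Of the endothelial list Vwf was lower (means of 43.5, 7.10 and 6.94 FPKM) and Kdr was higher (2.80, 3.84 and 4.07), and Pecam1 and Cdh5 were near 0. The part of these cells in the neuropilin values was not tested. The mean ratio of Nrp1 to Nrp2 FPKM was 0.299 ± 0.0118 in control TAMs, 0.770 ± 0.0730 with miR-144 and 0.794 ± 0.0589 with miR-451a (SD, n = 5).

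Plxdc1 and Plxdc2, transmembrane proteins that share a domain with plexins and bind other ligands, differed in direction too. Plxdc1 rose from 8.33 ± 0.474 FPKM to 10.4 ± 0.806 and 10.4 ± 0.559 (SD, n = 5), with differences of 0.28 and 0.29 (adjusted p = 0.000209 and 0.000179), and 0.15 and 0.14 after median centring, where both calls held (adjusted p = 0.0237 and 0.0295). Plxdc2 fell from 23.5 ± 0.652 FPKM to 19.5 ± 1.17 and 19.5 ± 0.451, by 0.26 in both comparisons (adjusted p = 1.53e-05 and 1.63e-05), and was at -0.40 in both after median centring.

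**Figure D2:**
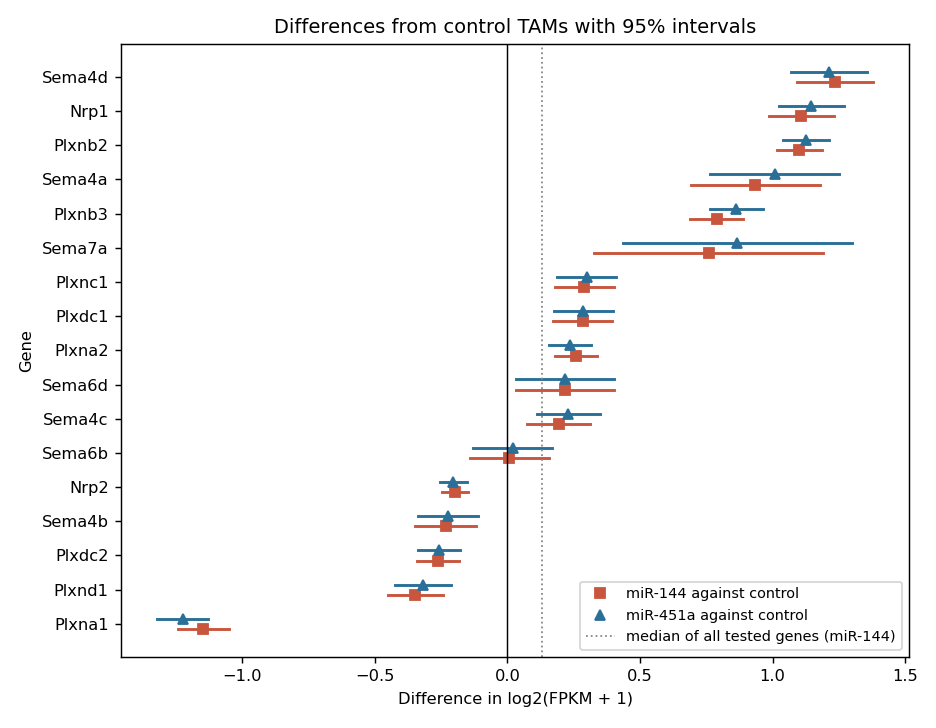
Differences from control TAMs on the log2(FPKM + 1) scale for the 17 expressed genes, ordered by size, with 95% intervals from limma; squares are miR-144, triangles miR-451a, and the dotted line is the median of all tested genes with miR-144, at 0.13. The intervals of the miRNA groups overlapped for each gene, with Sema4d at 1.24 and 1.21 at the top and Plxna1 at -1.15 and -1.22 at the bottom.

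The summed FPKM of the 9 plexins overlapped between the groups, while its makeup differed between control and miRNA samples. It was 333 ± 15.2 FPKM in control TAMs, 324 ± 10.5 with miR-144 and 326 ± 15.1 with miR-451a (SD, n = 5). Plxna1 made up 40.1% ± 0.873 of it in control TAMs, 18.4% ± 0.338 with miR-144 and 17.3% ± 0.410 with miR-451a. Plxnb2 made up 19.5% ± 0.552, 43.3% ± 0.392 and 43.9% ± 0.797. The ratio of Plxna1 to Plxnb2 was 1.95 to 2.17 in control samples, 0.408 to 0.437 with miR-144 and 0.379 to 0.409 with miR-451a, so the more abundant of the pair was a different gene in control than in miRNA samples. Plxnd1 went from 28.4% to 22.8% and 23.2%, and Plxnc1 from 10.7% to 13.4% and 13.5%. These ratios come from within 1 sample and do not depend on the scaling between samples.

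The summed FPKM of the 20 semaphorins was 51.7 ± 3.32 in control TAMs, 108 ± 6.26 with miR-144 and 107 ± 8.35 with miR-451a (SD, n = 5), with no overlap between control and miRNA samples. Sema4d made up 67.0% ± 0.335 of it in control TAMs, 77.2% ± 1.02 in the miR-144 group and 76.0% ± 1.56 in the miR-451a group. The share of Sema4a was 11.1% ± 0.989, 11.1% ± 1.03 and 11.7% ± 1.02, with overlapping ranges.

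**Figure D3:**
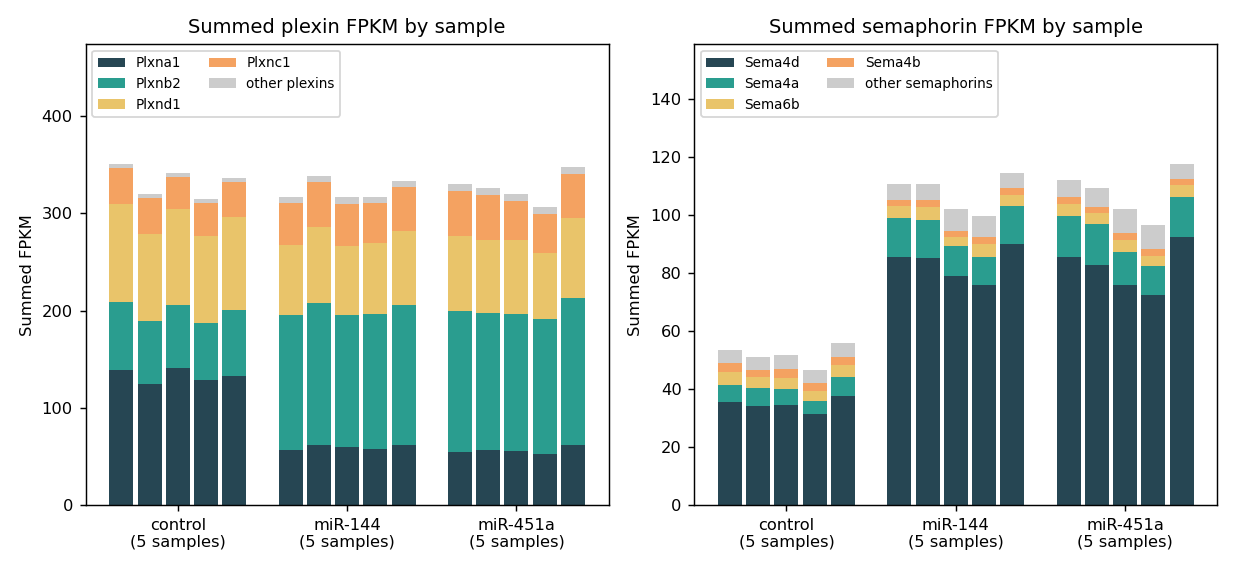
Summed FPKM of the plexins (left) and of the semaphorins (right), with 1 stacked bar per sample, 5 samples in each group, and colours for the leading genes. The plexin bars are of like height, from 306 to 351 FPKM, with Plxna1 at the base smaller and Plxnb2 larger in both miRNA groups, and the semaphorin bars rise from at most 55.7 FPKM in control samples to at least 96.5 FPKM.

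In all 3 groups, samples 3 and 4 differed from samples 1, 2 and 5 in several of these genes. The pattern was seen in the data and the labels name no batch. In the miR-144 group, 6 of the 17 genes were higher and 3 were lower in both samples 3 and 4 than in the other samples, beside 14% and 17.7% of all genes. In the miR-451a group the numbers were 3 and 6, beside 14.2% and 18% of all genes, and in control TAMs 2 and 4, beside 8.27% and 18.4%. Samples 3 and 4 were highest for Nrp1 and Sema6d and lowest for Sema4a in each of the 3 groups. For Sema7a, where they were highest, and Sema4d, where they were lowest, this held in both miRNA groups, and in control TAMs they overlapped the others. Cd5l, a macrophage gene of the Kupffer cell list, moved with them. It was at 44.9 and 48.9 FPKM in miR-144 samples 3 and 4 and at 16.4 to 19.7 in the others, at 38.4 and 46.1 in miR-451a samples 3 and 4 and at 15.3 to 18.3 in the others, and at 3.45 and 3.65 in control samples 3 and 4 and at 3.21 to 3.40 in the others. Its part in the Sema7a and Sema4a values was not tested. Without samples 3 and 4 of the miRNA groups, 15 of the 17 genes were called in each comparison with control, 10 higher and 5 lower, beside 44.2% and 18.5% of all genes for miR-144 and 45.6% and 19.4% for miR-451a in the same fit. The call of Sema6d was lost (0.12 and 0.09, adjusted p = 0.111 and 0.225). Without samples 3 and 4 of all groups, 14 were called with miR-144 and 15 with miR-451a, beside 57.4% and 59.8% of all genes. Sema6d lost its call in both comparisons (0.17 and 0.14, adjusted p = 0.0555 and 0.103), and Sema4b with miR-144.

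**Figure D4:**
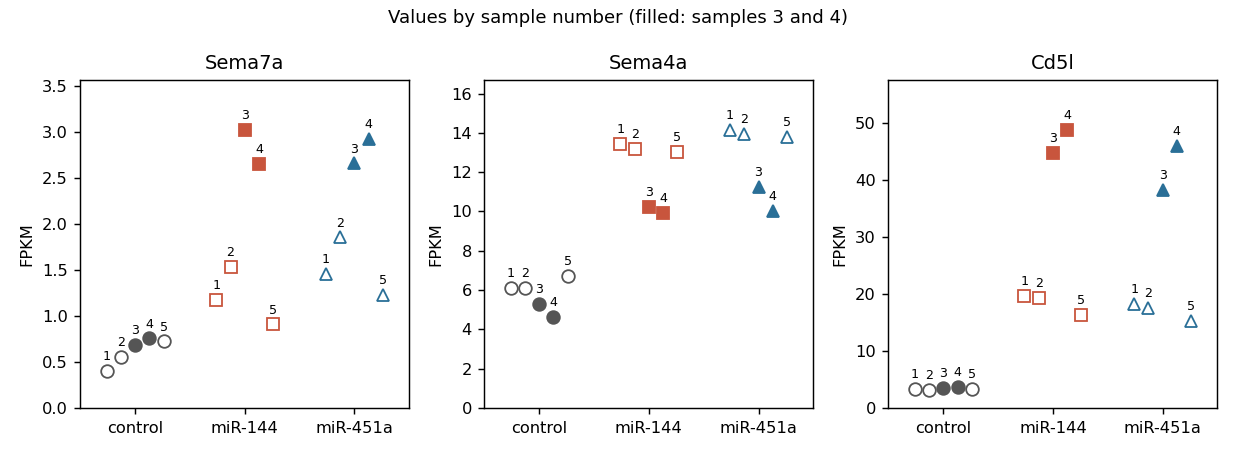
FPKM of Sema7a, Sema4a and Cd5l by group, with 1 numbered point per sample and samples 3 and 4 filled. In both miRNA groups samples 3 and 4 are highest for Sema7a (2.65 to 3.02 FPKM) and Cd5l and lowest for Sema4a (9.93 to 11.3 FPKM), and in control samples 3 and 4 are also lowest for Sema4a and, over a far smaller range, highest for Cd5l.

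The 16 genes with a mean under 1 FPKM were 13 semaphorins and 3 plexins. Of them, 14 stayed under 0.5 FPKM in all samples, 7 stayed under 0.1 and 6 were listed at 0 in at least 1 sample. Plxna3, a receptor partner of neuropilins, was highest, at 0.344 to 0.468 FPKM in control TAMs, 0.594 to 0.843 with miR-144 and 0.583 to 0.872 with miR-451a. It rose by 0.31 and 0.29 on the log2 scale (adjusted p = 0.000273 and 0.000515, in the fit of 29540 genes with no filter on low values). Sema3f, a secreted ligand of Nrp2, was at 0.448 to 0.649 FPKM in control TAMs, 0.236 to 0.446 with miR-144 and 0.264 to 0.476 with miR-451a. It fell by 0.17 with miR-144 (adjusted p = 0.0336), while the difference of -0.10 with miR-451a did not pass (adjusted p = 0.226). In the fit with no filter, 3 of the 16 were called with miR-144 (Plxna3 and Plxnb1 higher, Sema3f lower) and 6 with miR-451a (Plxna3, Plxna4, Plxnb1, Sema3a and Sema4g higher, Sema3c lower), beside 32.8% and 34.2% of all genes. At these levels the log2(FPKM + 1) scale understates changes, and an FPKM of 0 says only that a gene was listed at 0.

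Between TAMs from miR-451a and miR-144 tumors no gene of the family was called. The limma contrast called 0 of the 17 expressed genes, beside 0% of all genes, and none of the 17 had an unadjusted p under 0.05. Over the 11419 genes 596 did, a share near the 0.05 threshold itself, so this does not set the family apart. The groups overlapped for all 17 genes, beside 0.849% of all genes whose groups did not overlap. Among the 17, the difference of largest size was 0.11 for Sema7a (95% interval -0.32 to 0.54), which was also the widest interval. For Plxna1 the difference was -0.08 (-0.17 to 0.02), for Plxnb2 0.02 (-0.06 to 0.11), for Nrp1 0.04 (-0.09 to 0.16), and for Sema4d -0.02 (-0.17 to 0.12). These intervals leave room for differences of up to those bounds. The low gene Sema3b, at 0.0604 to 0.207 FPKM with miR-144 and 0.191 to 0.358 with miR-451a, had a larger difference of 0.16 in the fit with no filter (unadjusted p = 0.00253 and adjusted p = 0.705 in limma).

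Genes that act with semaphorins and plexins were described from 3 lists. Of 34 genes downstream of plexins, 29 were tested, of which 13 rose and 7 fell in the miR-144 group, and 14 rose and 10 fell in the miR-451a group. Over all genes 47.1% and 48.1% rose and 20.1% and 20.3% fell, and the counts were not read as a result about the list. The median differences of this list were 0.11 and 0.16, near those of all genes. Rnd3, a small GTPase that binds plexins, rose by 1.48 and 1.49, and Sh3bp1, which binds plexins, by 1.26 and 1.27. The kinase Pak1 rose by 1.15 in both comparisons, and Dpysl2, the collapsin response mediator that is phosphorylated after semaphorin signals, rose by 0.97 and 1.08. Fyn, a kinase of the class 3 pathway, fell by 0.93 and 0.82, and Mical1, an oxidoreductase that binds A plexins, fell by 0.61 in both comparisons. Each of these 6 had an adjusted p under 0.05 in both comparisons, and they are examples from the list. Of the others, Rhod rose by 1.12 in both comparisons and Limk1 fell by 0.64 and 0.51, and both were called. Rac1, Cdk5 and Pak2 were called in neither comparison. Of 19 coreceptors, other ligands and receptors, 9 were tested, and 6 rose and 1 fell in each comparison, beside the same shares of all genes. Of the 6, Cd72 was called with miR-144 (adjusted p = 0.0154, and 0.0607 with miR-451a), where miR-144 samples 3 and 4, at 78.1 and 73.3 FPKM, stood apart from the others, at 112 to 131, and 1 of them lay within the control range of 58.4 to 77.4. Vegfb was called with miR-451a (adjusted p = 0.0497, and 0.123 with miR-144), while Vegfa, Kdr, Trem2, Tyrobp and L1cam were called in both. Vegfa, the other ligand of Nrp1, rose from 6.12 ± 0.420 FPKM to 15.9 ± 1.47 and 16.4 ± 1.01 (SD, n = 5), by 1.24 and 1.29 (adjusted p = 8.61e-11 and 5.23e-11). The VEGF receptor Flt1 went from 6.46 ± 0.317 FPKM to 0.0366 ± 0.0157 and 0.0449 ± 0.0219, a fall of 2.85 and 2.84 on the log2 scale (adjusted p = 5.70e-17 and 5.60e-17). Flt1 is the 1 gene counted as falling, and it passed the filter only through the control group, so its fall is a description. The other VEGF receptor tested, Kdr, rose from 2.80 ± 0.221 FPKM to 3.84 ± 0.401 and 4.07 ± 0.729, by 0.35 and 0.40 (adjusted p = 0.00272 and 0.000807). Of 7 proteases that cut semaphorins or neuropilins, 5 were tested. Mmp14, which sheds Sema4d, rose by 1.02 and 1.01 (adjusted p = 1.57e-07 and 1.62e-07), while Furin, which activates class 3 semaphorins, fell by 0.56 and 0.54 (adjusted p = 4.08e-05 and 6.01e-05). Adam10 fell with miR-144 (-0.25, adjusted p = 0.0106) and was not called with miR-451a (-0.12, adjusted p = 0.169), and between the miRNA groups none of the tested genes of these lists was called.

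The sequences upstream of these genes are described next, for genes that rose and genes that fell alike. Windows of 300 bases, from 250 before to 50 after a start, were available in RefSeq (GRCm38.p6) for 14 of the 17 expressed genes. None was available for Plxna1, the gene that fell most, nor for Plxdc1 and Plxdc2. The upstream 250 bases of 3 of them are printed 5′ to 3′ on the strand of the gene, for Sema7a and Plxnb3, which rose, and for Plxnd1, which fell. Capitals mark matches, on either strand, to the letters of the GC box, GGGCGG, or to those of an ETS site of the kind bound by PU.1, GAGGAAG. They lie at chr9:57939862-57940111 (plus strand), chrX:73756853-73757102 (plus strand) and chr6:115995006-115995255 (minus strand), in this order.
Sema7a: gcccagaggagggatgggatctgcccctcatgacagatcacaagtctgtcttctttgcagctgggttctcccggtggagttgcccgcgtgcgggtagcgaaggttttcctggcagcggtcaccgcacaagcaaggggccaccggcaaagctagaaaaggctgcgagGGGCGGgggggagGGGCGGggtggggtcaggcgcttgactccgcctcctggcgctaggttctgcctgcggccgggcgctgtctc
Plxnb3: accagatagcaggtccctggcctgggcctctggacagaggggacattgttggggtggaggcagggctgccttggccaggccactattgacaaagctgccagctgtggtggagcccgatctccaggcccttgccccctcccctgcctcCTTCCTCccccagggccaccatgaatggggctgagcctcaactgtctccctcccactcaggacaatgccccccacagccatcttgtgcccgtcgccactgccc
Plxnd1: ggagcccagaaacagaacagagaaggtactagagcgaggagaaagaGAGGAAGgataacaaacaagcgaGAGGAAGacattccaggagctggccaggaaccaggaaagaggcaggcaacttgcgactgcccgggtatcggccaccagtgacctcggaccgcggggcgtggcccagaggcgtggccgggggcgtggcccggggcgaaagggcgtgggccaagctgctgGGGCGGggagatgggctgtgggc
GGGCGG was in 79.2% of the 24 windows of expressed family members and in 63.4% of the 10288 windows of expressed genes. GAGGAAG was in 8 family windows (33.3%) and in 1441 of all (14.01%), in windows of Nrp1, Plxnb3, Plxnc1, Plxnd1, Sema4a, Sema4b and Sema6b, which include genes that rose, genes that fell and 1 that was not called. The other motifs searched on both strands were an AP-1 site, TGANTCA (12.5% of family windows and 4.92% of all), and an E-box, CACGTG (8.33% and 10.4%). A TATA box, TATAAA, was in 0% and 6.85%. The STAT6 motif was in 0% and 5.27% and the ISRE in 8.33% and 3.35%. The median number of CpG in a window was 14 in the family and 21 in all expressed genes. Windows of 1 gene overlap in part, and a match is no evidence of binding.

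The 3′ UTRs of the expressed genes in GENCODE M21 (GRCm38) were searched for the 7 bases that pair with each seed. ATACTGT, for miR-144-3p, occurred in 4 of the 17 genes (23.5%, beside 13.7% of 10010 expressed genes). TGATATC, for miR-144-5p, occurred in Plxna2, Plxnc1 and Sema6d (17.6%, beside 5.66%), and AACGGTT, for miR-451a, in none (beside 1.87%). The 6 matches to miR-144-3p are shown with 8 bases on each side, with the match in capitals, to set their sequence beside the seed printed above.
Plxdc2 chr2:16752800-16752822 (plus strand): gagttcagATACTGTggcataca
Plxdc2 chr2:16755650-16755672 (plus strand): gaaaactaATACTGTttattgaa
Plxdc2 chr2:16755789-16755811 (plus strand): atatactcATACTGTtgtgtttt
Plxnc1 chr10:94792013-94792035 (minus strand): atcaagttATACTGTagtctttt
Sema4a chr3:88436184-88436206 (minus strand): gtcatgccATACTGTttgggaag
Sema6d chr2:124667635-124667657 (plus strand): gtggctctATACTGTtttataga
Of these 4 genes Plxdc2 fell in both miRNA groups, and Sema4a, Plxnc1 and Sema6d rose in both. The call of Sema6d was lost in 10 of 20 alternatives in each comparison. A match of letters is not a target site, and the level of the mature miRNAs in TAMs was not analysed here.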

How the data were processed

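TAMs in 15 samples were profiled by RNA-seq on an Illumina HiSeq instrument. The authors deposited FPKM per gene and sample. The submitters' processing notes name FastQC 0.11.2, STAR and StringTie. The genome build and annotation are not given in the sources used here. Depth was implied from steps between low values, but only 37.6% to 50.3% of low values fell within 5% of a step, so counts were not recovered and no count test was run.

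Groups and numbers came from the sample titles. limma 3.58.1 (R 4.3.3) was fitted to log2(FPKM + 1), 3 groups in 1 fit with a mean-variance trend, over the 11419 genes whose mean over all samples reached 1 FPKM, and p-values were adjusted by Benjamini-Hochberg. Genes under that mean came from the fit of 29540 genes without the filter. The step was tested on simulated data. Genes of the family were named when they passed the filter, reached a mean of 0.5 FPKM in a group, were 0 throughout or passed the unfiltered fit. Sema4f, Sema4g and Sema3b were named after their values were seen. The members and lists were chosen with earlier results of these data known. Coordinates are 1-based, from GENCODE M21, and 99.67% of identifiers matched. Sequence steps used Python 3.11.15. Alternatives were a pseudocount of 0.1, other filters, other scalings, the replicate block, no trend, 2 groups only, a log2 minimum of 1, and samples left out.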

Additional observations from a re-analysis of the deposited data

How the results depend on the processing

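The calls of the family against control held their direction in every alternative run. Of 350 gene and setting pairs in each comparison with control, 337 with miR-144 and 336 with miR-451a kept their side of the threshold and 13 and 14 lost the call, all of them Sema6d, Sema4c, Sema4b or Plxna2. The number of called genes was 16 in each comparison with control (beside 67.2% and 68.3% of all genes), 10 of 10 tested in each at a minimum mean of 5 FPKM (fewer genes tested, beside 71.9% and 72.6% of all), and 4 (miR-144) and 5 (miR-451a) at a log2 difference of at least 1. It was 15 to 16 with any sample left out (beside 64.7% to 65.7% and 66% to 67.4% of all genes). Median centring and quantile normalization each gave 14 (9 higher, 5 lower) and 13 (8 higher, 5 lower), beside 61.5% and 63.2% of all genes for the first and 61.3% and 62.9% for the second, and the fit without a filter called 18 and 21 of the 33, beside 32.8% and 34.2% of all genes. Between the miRNA groups it was 0 in all. Median centring moved the share of higher among all called genes from 70.1% and 70.3% to 50% and 49.6%, quantile normalization to 52.3% in both and rescaling to TPM to 76.5% and 77.3%.

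The labels number the samples 1 to 5 in each group without saying that a number marks a shared mouse or batch. Deviations of same-numbered samples correlated by -0.0122, 0.140 and 0.101 on average in the 3 pairs of groups, and 0, 3 and 1 of 5 samples correlated best with their own number. With the number as a replicate block 16, 16 and 0 genes were called, beside 67.5%, 68.8% and 0% of all genes. Leaving out samples 3 and 4 of the miRNA groups was chosen after seeing the data and gave 15, 15 and 0, and leaving out samples 3 and 4 of all groups, also chosen then, gave 14, 15 and 0. Depth limits what can be said of the 16 genes under 1 FPKM.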
